A study of Homo sapiens with 16 samples.

Results

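The comparison described here is that of BRD9 KO with LacZ control cells on day 3 of a deletion time course, with 2 libraries in each group, which are 4 of the 16 libraries of the series and were chosen by the day in their labels. All were bulk RNA-seq of G401, a cell line derived from a kidney rhabdoid tumor. SMARCB1, a SWI/SNF subunit, is mutant in this line, so that every group lacks it. BRD9 was deleted with CRISPR-Cas9, and the controls are named after LacZ, a bacterial gene absent from the human genome. Whether the cells were a pool or a clone, which guides were used and the day from which the deletion is counted are not given in the sources used here, and the other libraries came from the same groups on days 1, 2 and 5. The comparison asks which RNA levels set BRD9 KO apart from LacZ cells at day 3, and which genes passed the test on this day without having passed it on day 1 or day 2.

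BRD9 is a bromodomain protein, a reader of acetylated lysine, and a subunit of the non-canonical form of SWI/SNF (ncBAF, also called GBAF), which is marked by GLTSCR1 or GLTSCR1L. SWI/SNF complexes use ATP to move nucleosomes and so change how open promoters and enhancers are. SMARCB1, the subunit that rhabdoid tumors lose, belongs to the canonical forms and not to the non-canonical one.

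The BRD9 KO libraries of day 3 held 16560717 and 11924654 counts and the LacZ libraries 12482316 and 12759957 counts. After a filter on low counts, 15027 of 57820 genes were tested. Between the 2 libraries of a group, the spread over genes was 1.13 times counting noise in BRD9 KO and 1.07 times in LacZ cells on day 3, so that abundant genes could be called at small differences. The methods call the replicates biological but do not say that they came from separate cultures, and p-values measure only the spread between these libraries, which may be technical. SMARCB1 was at 0 counts in all 4 libraries, which allows up to 0.181 and 0.252 CPM (counts scaled to the library total) in the BRD9 KO and 0.24 and 0.235 CPM in the LacZ libraries, while the vimentin and keratin genes that rhabdoid cells express together were abundant (VIM at 1940 and 1990 CPM in BRD9 KO, 2020 and 2060 CPM in LacZ). These levels are unscaled, whereas the CPM of genes and lists that follow are scaled by TMM, which corrects for composition. Of 17 blood cell markers 14 stayed under 1 CPM in every day-3 library, and of 11 endothelial markers 10 did; PTPRC, CD3E, KDR and EMCN were at 0. The most abundant of the blood cell markers was CD68, a protein of lysosomes, at 62.3 and 63.6 CPM in BRD9 KO and 69.5 and 64.6 CPM in LacZ cells, and none of those tested was called.

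BRD9 RNA itself was lower on day 3 in both BRD9 KO libraries. The gene (ENSG00000028310.13; chromosome 5, 850406 to 892916 in GRCh37, minus strand) stood at 25.7 and 25.5 CPM in BRD9 KO cells, against 62.2 and 64.5 CPM in LacZ cells. The groups did not overlap, and 40.4% of the control level was left. The log2 fold change was -1.31 (standard error 0.0654, adjusted p = 1.34e-10, edgeR's quasi-likelihood test with Benjamini-Hochberg adjustment over the genes tested, as for every adjusted p given here unless another test is named). What share of the cells carried the deletion was not tested. Among the 24 tested SWI/SNF subunits, 3 fell, BRD9 included, and 1 rose, with a median log2 fold change of -0.03. Among all genes 5.85% fell and 4.59% rose, and the counts of subunits other than BRD9 are close to those shares. The subunit that rose was GLTSCR1L, a partner of BRD9 in the non-canonical complex, at 19.0 and 18.1 CPM in BRD9 KO and 11.9 and 12.9 CPM in LacZ cells (log2 fold change 0.59, standard error 0.0936, adjusted p = 0.000373). It was called for the first time on day 3. SMARCA4, the ATPase, and ARID1A, a subunit of canonical BAF, were lower by small amounts (log2 fold change -0.09 with adjusted p = 0.00362, and -0.15 with adjusted p = 0.00483), and both had been called before day 3. SMARCC1, a scaffold subunit, did not pass (0.03, adjusted p = 0.681). In limma-trend on log2(TPM + 1), GLTSCR1L, SMARCA4 and ARID1A were not called (adjusted p = 0.0695, 0.143 and 0.8), and ARID1A also lost its call without LacZ replicate 2 (adjusted p = 0.0729).

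Across all genes, 1569 of 15027 passed an adjusted p of 0.05 on day 3, which is 10.4% of those tested. Of these, 690 (4.59%) were higher and 879 (5.85%) lower in BRD9 KO cells. Most differences were small: the median absolute log2 fold change of the called genes was 0.22, 667 reached 0.25, 221 reached 0.5 and 73 reached 1 (29 higher and 44 lower). The called genes were abundant, with a median level of 6.28 log2 CPM against 4.52 for all genes tested, and 1488 of them code for proteins. The median log2 fold change of all genes was 0 to 2 decimals. In 1568 of the 1569 called genes the 2 BRD9 KO libraries lay beyond both LacZ libraries, as they did in 7690 of all 15027 genes. A lack of overlap between the groups therefore sets no called gene apart from the others. The count depends on the number of libraries and on the tool: it was 841 without BRD9 KO replicate 1, 1019 without BRD9 KO replicate 2, 873 without LacZ replicate 1 and 910 without LacZ replicate 2, and 908 in DESeq2 and 412 in limma-trend on log2(TPM + 1).

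**Figure D1:**
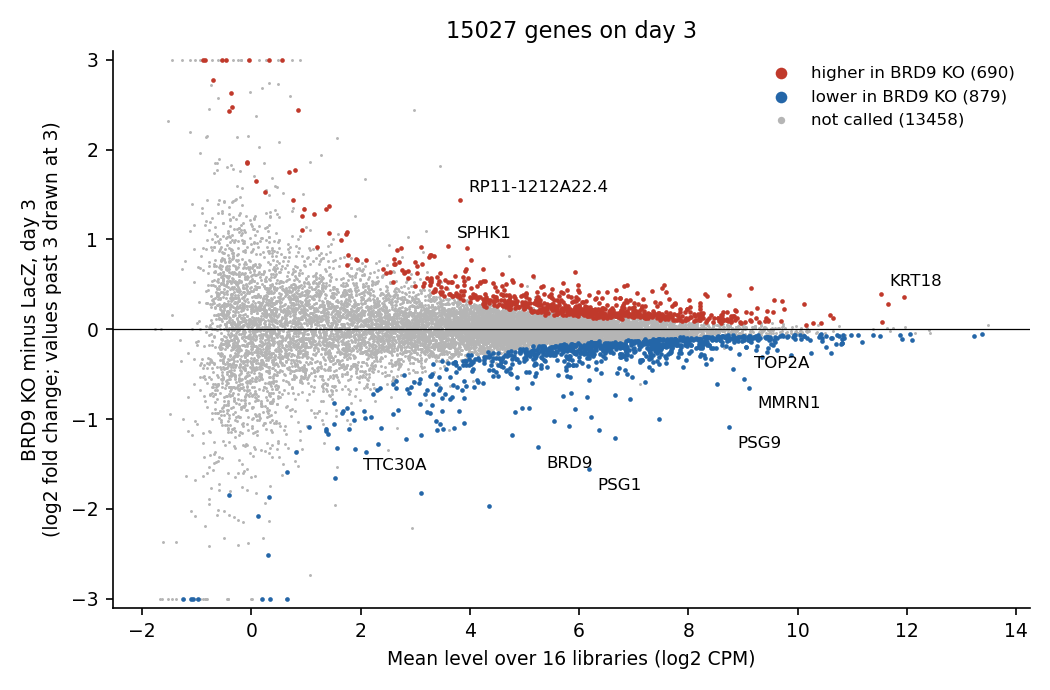
Log2 fold change on day 3 (BRD9 KO minus LacZ) against the mean level in log2 CPM for the 15027 genes tested. Red points are the 690 genes called higher in BRD9 KO cells, blue points the 879 called lower and grey points those not called; among abundant genes the called ones reach close to 0, and BRD9 and the PSG genes lie far below it.

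Among called genes with a mean level of at least 1 log2 CPM, the most strongly lowered on day 3 included, beside BRD9, pregnancy-specific glycoproteins and secreted or membrane proteins. The PSG genes, a cluster on chromosome 19, encode placental members of the carcinoembryonic antigen family. Of 10 tested, 10 fell, with a median log2 fold change of -1.14, where 5.85% of all genes fell. In DESeq2 9 of the 10 were called lower, and in limma-trend on log2(TPM + 1) 7 were. PSG1 was at 16.5 and 18.9 CPM in BRD9 KO and 52.8 and 50.4 CPM in LacZ cells (log2 fold change -1.56, standard error 0.0618, adjusted p = 4.64e-12). PSG9, the most abundant of them, was at 187 and 188 CPM in BRD9 KO and 399.9 and 398 CPM in LacZ cells (-1.09, standard error 0.0225, adjusted p = 4.43e-16). In each the groups were far apart. All but PSG4 had been called on day 1 or 2, and the summed CPM of the 10 genes differed from that in LacZ cells by -1.37% on day 1, -28.6% on day 2, -44.6% on day 3 and -54.7% on day 5. The PSG genes are near-identical copies, so the split of reads among them is uncertain.

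Other strongly lowered genes had not been called earlier. PRSS33, a trypsin-like protease, was at 0.664 and 0.758 CPM in BRD9 KO and 2.18 and 2.3 CPM in LacZ cells (log2 fold change -1.66, adjusted p = 0.00353). CCL25, a chemokine, was at 0.965 and 1.01 CPM in BRD9 KO, against 3.07 and 2.06 CPM in LacZ cells (-1.37, adjusted p = 0.00358). TTC30A, a part of the intraflagellar transport machinery of cilia, was at 1.75 and 2.53 CPM in BRD9 KO and 5.74 and 4.83 CPM in LacZ cells (-1.33, adjusted p = 0.000733). These 3 were scarce in both groups. That their groups did not overlap was required by the rule for naming genes. EDN2, the peptide endothelin 2, was at 1.57 and 1.26 CPM in BRD9 KO and 3.39 and 3.8 CPM in LacZ cells (-1.32, adjusted p = 0.00455). TSPAN1, a tetraspanin of the cell membrane, was at 2.96 and 2.19 CPM in BRD9 KO and 6.95 and 5.78 CPM in LacZ cells (-1.28, adjusted p = 0.000144). Both genes stood at well under the LacZ level in each BRD9 KO library. PRSS33, CCL25, TTC30A, EDN2 and TSPAN1 got no adjusted p in DESeq2. In limma-trend on log2(TPM + 0.1), EDN2 and TTC30A were not called (adjusted p = 0.0605 and 0.0548). TINAGL1, a matrix protein, was at 8.63 and 9.85 CPM in BRD9 KO and 20.8 and 16.9 CPM in LacZ cells (-1.04, adjusted p = 4.65e-05). MMRN2, a multimerin of the matrix and one of the genes already called before day 3, was at 3.08 and 3.54 CPM in BRD9 KO and 7.43 and 7.84 CPM in LacZ cells (-1.22, adjusted p = 0.000104). The lowest fold change at a mean level of at least 1 log2 CPM belonged to TMEM189-UBE2V1, a readthrough transcript that shares exons with its neighbours: it was listed at 0.0 and 13.4 CPM in BRD9 KO and 21.2 and 23.4 CPM in LacZ cells, with 1 of the 2 BRD9 KO libraries at 0 (-1.97, adjusted p = 0.0391, and 0.327 without BRD9 KO replicate 1, 0.122 without LacZ replicate 1 and 0.168 without LacZ replicate 2). PRSS33 lost its call without BRD9 KO replicate 1 (adjusted p = 0.0558), CCL25 without LacZ replicate 1 (0.097), and MMRN2 in limma-trend on log2(TPM + 1) (0.148).

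Several of the genes with the highest fold changes at the same minimum level were scarce. Those described here were called for the first time on day 3. RP11-1212A22.4, a gene on chromosome 16 without a common name, was at 24.3 and 20.3 CPM in BRD9 KO and 6.46 and 10.1 CPM in LacZ cells (log2 fold change 1.43, standard error 0.216, adjusted p = 0.000205). SPHK1, the kinase that makes sphingosine 1-phosphate, was at 16.2 and 17.0 CPM in BRD9 KO and 8.56 and 8.87 CPM in LacZ cells (0.93, standard error 0.121, adjusted p = 4.15e-05). Both BRD9 KO libraries were above both LacZ libraries in each case, which the rule for naming genes required. CDH24, a cadherin, was at 11.3 and 11.95 CPM in BRD9 KO and 5.57 and 6.65 CPM in LacZ cells (0.92, adjusted p = 0.000899). SERINC5, a multipass membrane protein, was at 7.6 and 7.83 CPM in BRD9 KO, against 4.52 and 3.72 CPM in LacZ cells (0.90, adjusted p = 0.000612). By the same rule the groups did not overlap in either gene. Below 5 CPM in every day-3 library lay ANKRD37, an ankyrin repeat protein known as a hypoxia target (1.37), EFR3B, a membrane anchor of a phosphatidylinositol kinase (1.34), TMEM54 (1.29), ELFN2 (1.09) and TRAF1, an adaptor of TNF receptors (1.07), with adjusted p = 0.0183, 0.00873, 0.0235, 0.0162 and 0.0161. Without LacZ replicate 1 these 5 lost the call (adjusted p = 0.156, 0.0849, 0.172, 0.142 and 0.0649); ANKRD37, EFR3B, TMEM54 and TRAF1 did so without BRD9 KO replicate 1 (0.211, 0.169, 0.235 and 0.122), and ELFN2 did so without BRD9 KO replicate 2 (0.158). TMEM54 also lost it with the replicate number as a block (adjusted p = 0.056). Without LacZ replicate 2 the call was lost for ANKRD37, TMEM54, ELFN2 and TRAF1 (0.0601, 0.0622, 0.0509 and 0.128). In limma-trend on log2(TPM + 1), ANKRD37, EFR3B, ELFN2 and TRAF1 were not called (adjusted p = 0.179, 0.066, 0.803 and 0.119). These genes and TMEM54 got no adjusted p in DESeq2.

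**Figure D2:**
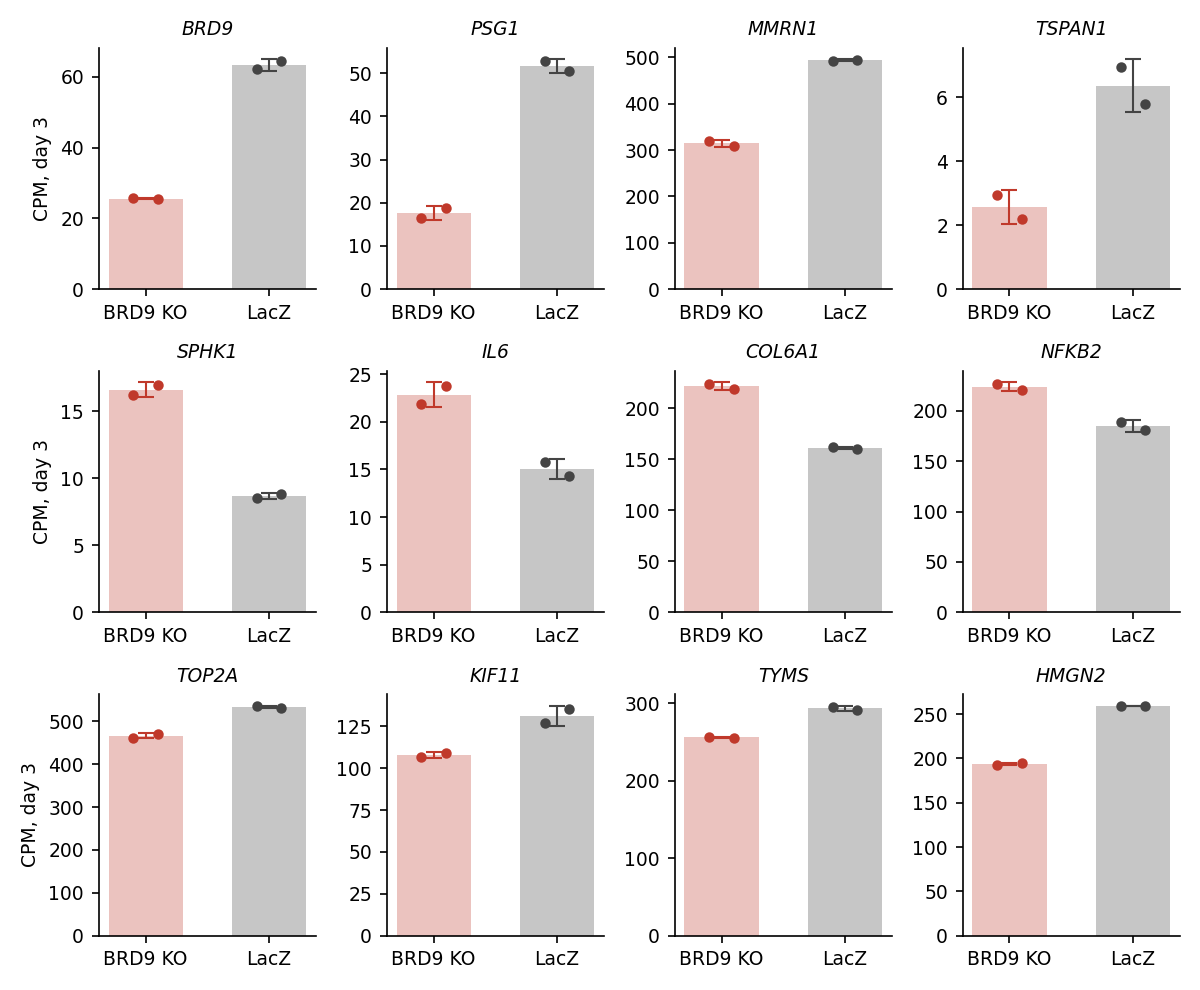
TMM-scaled CPM on day 3 of 12 genes, with a point for each library, a bar for the mean and the SD (n = 2 in each group), BRD9 KO beside LacZ. In every panel both BRD9 KO libraries lie on 1 side of both LacZ libraries, by a wide margin for BRD9, PSG1 and SPHK1 and by a narrow one for TOP2A, KIF11 and TYMS.

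Of the 1569 genes called on day 3, 1266 had been called on neither day 1 nor day 2, which is 8.42% of all genes tested. They comprised 580 higher (3.86%) and 686 lower (4.57%) genes, and 55 of them reached an absolute log2 fold change of 1. The other 303 had been called before, and 296 of these kept the direction of every earlier call; 140 of the 443 genes called on day 1 or 2 were not called on day 3. Since 81 genes were called on day 1 and 406 on day 2, most calls of day 3 are first calls. In the first-called higher genes the median log2 fold change was 0.03, 0.08, 0.24 and 0.22 on days 1, 2, 3 and 5, and in the first-called lower genes it was -0.03, -0.06, -0.20 and -0.16. The rule fixed the values of days 1 to 3 in part, so they are a description. An unadjusted p of at least 0.05 on both earlier days was found for 699 of the 1266, while the others had a lower one on at least 1 of these days. The number of first calls fell to 589 without BRD9 KO replicate 1, 754 without BRD9 KO replicate 2, 637 without LacZ replicate 1 and 664 without LacZ replicate 2 of day 3.

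The calls of day 5 did not enter this rule, but all libraries share 1 estimate of spread per gene, so the calls of the days are not wholly independent. On day 5, 774 of the 1266 first-called genes were called again (61.1%), 769 of them in the same direction, and 1188 (93.8%) had the same sign as on day 3, against 67.5% of all genes and 64.4% of those not called on day 3. Of the 13458 genes not called on day 3, 1204 (8.95%) were called on day 5, and of all genes 15%; the first-called genes were more abundant than all genes (a median of 6.12 against 4.52 log2 CPM), and the part of abundance in this difference was not tested. The share called on day 5 was 62.8% among the first-called higher and 59.8% among the first-called lower genes.

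**Figure D3:**
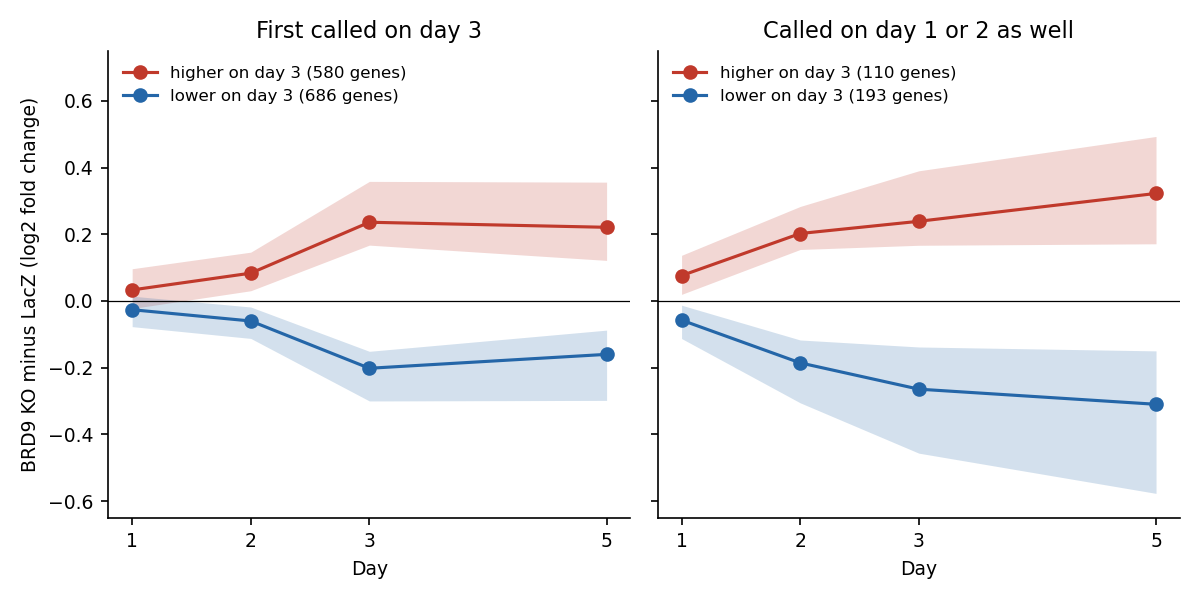
Median log2 fold change (BRD9 KO minus LacZ) on days 1, 2, 3 and 5, with the 25th to 75th percentile as a band, for genes first called on day 3 (left) and genes called on day 3 and on an earlier day (right). The 580 first-called higher and 686 first-called lower genes lie near 0 on day 1, move apart on day 3 and stay apart on day 5.

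A first call does not show that the effect differed from the days before, so the day 3 effect was also tested against the mean effect of days 1 and 2. This difference was called in 393 genes (2.62%), 147 upward and 246 downward. Of the 1266 first-called genes 250 were among them, 107 higher and 143 lower on day 3; both rules use the libraries of day 3, so the overlap is a description. FSTL3, a secreted inhibitor of activin, was at 20.6 and 18.4 CPM in BRD9 KO and 11.1 and 11.8 CPM in LacZ cells on day 3 (log2 fold change 0.77, adjusted p = 3.06e-05), and its effect was 0.69 above the mean of days 1 and 2 (adjusted p = 0.00342). KLF13, a zinc finger transcription factor, was at 11.6 and 10.4 CPM in BRD9 KO and 6.06 and 6.57 CPM in LacZ cells (0.80, with a difference of 0.65 from the earlier days, adjusted p = 0.0455). SLC25A48, a mitochondrial carrier, was at 12.1 and 11.3 CPM in BRD9 KO and 6.95 and 7.29 CPM in LacZ cells (0.72, difference 0.71, adjusted p = 0.0118). The groups did not overlap in these 3 genes on day 3, and none of them was called on day 1 or 2. Downward, TSPAN10, another tetraspanin, was at 15.4 and 14.6 CPM in BRD9 KO and 29.97 and 33.5 CPM in LacZ cells (-1.07, difference -0.91, adjusted p = 8.69e-06), and TSPAN1 and TTC30A differed from the earlier days by -1.06 (adjusted p = 0.0144) and -1.18 (adjusted p = 0.0279). The effect on BRD9 itself did not pass this test (difference 0.12, adjusted p = 0.644). The 393 were 177 without BRD9 KO replicate 1, 185 without LacZ replicate 1 and 200 without LacZ replicate 2 of day 3, 236 in DESeq2 and 59 in limma-trend on log2(TPM + 1).

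Genes of the cell division cycle had the most first calls of the 37 gene lists examined, all in 1 direction. The lists differ in size and were chosen with earlier results of these data known, so this ranking is a description. Of the 40 genes tested in a list of G2/M and mitosis genes, 29 fell and none rose on day 3, all 29 for the first time, where 4.57% of all genes were first-called lower. All 40 had a negative log2 fold change, and their medians were -0.004, -0.01, -0.19 and -0.16 on days 1, 2, 3 and 5. The summed level of the 40 genes was 4272 and 4305 CPM in the BRD9 KO and 4881 and 4824 CPM in the LacZ libraries of day 3, a difference of -11.6%, against -0.507% on day 2 and 0.422% on day 1. TOP2A, the topoisomerase that untangles chromosomes, was at 462 and 470.0 CPM in BRD9 KO and 535 and 532 CPM in LacZ cells (log2 fold change -0.20, standard error 0.0216, adjusted p = 5.87e-06). KIF11, a kinesin of the spindle, was at 107 and 109 CPM in BRD9 KO and 127 and 136 CPM in LacZ cells (-0.28, standard error 0.0388, adjusted p = 7.09e-05). The libraries of the 2 groups did not overlap in either gene, and the gap exceeded the spread between libraries. CCNA2, cyclin A, was at 90.9 and 98.1 CPM in BRD9 KO and 114 and 117 CPM in LacZ cells (-0.30, adjusted p = 0.000128). TPX2, a spindle assembly factor, was at 173 and 184 CPM in BRD9 KO, against 215 and 208 CPM in LacZ cells (-0.25, adjusted p = 0.000151). In all 4 the effect was below the mean of days 1 and 2 (differences of -0.24, -0.32, -0.29 and -0.25, adjusted p = 3.01e-05, 0.000599, 0.00374 and 0.00388). Such a difference was called in 13 of the 40, and in 246 of all 15027 genes. The most abundant member that did not pass was ECT2, which activates RhoA in cytokinesis, at 259.6 and 263 CPM in BRD9 KO and 284 and 269 CPM in LacZ cells (adjusted p = 0.0851, and 0.0382 without LacZ replicate 2). Without LacZ replicate 1, 18 of the 40 were lower, and in limma-trend on log2(TPM + 1) 9 were. In bulk RNA, fewer cells in a phase and less RNA of these genes per cell cannot be told apart.

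Many promoters of mitotic genes carry a short element known as the cell cycle homology region (CHR), with the letters TTTGAA, that is read by complexes of MuvB proteins. It was searched on both strands in RefSeq promoters of GRCh38.p14, from 250 bases before to 50 bases after the start of a gene, which were matched for 10519 of the 15027 tested genes. The letters were present in 22 of 33 promoters of the G2/M list (66.7%) and in 9.28% of all 10519; the share was 16.6% among first-called lower genes, 13.2% among lower genes outside the G2/M list and 7.18% among higher genes. Within the list 18 of 25 promoters of called genes and 4 of 8 of those not called held it. The letters CCAAT, whose last base can be the first of TTTGAA, were present in 72.7% of the G2/M promoters and 36.7% of all. Stretches of 30 bases around the element nearest to the start are shown for the 6 genes of the list with the smallest p that hold it, to let the element be read in its surroundings; capitals mark TTTGAA or its reverse complement TTCAAA.
TOP2A (chr17:40418030-40418059, minus strand): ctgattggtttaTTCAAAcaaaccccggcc
KIF11 (chr10:92593090-92593119, plus strand): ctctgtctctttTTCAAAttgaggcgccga
PLK1 (chr16:23678848-23678877, plus strand): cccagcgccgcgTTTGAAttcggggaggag
PRC1 (chr15:90994538-90994567, minus strand): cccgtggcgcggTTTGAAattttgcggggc
CDK1 (chr10:60778158-60778187, plus strand): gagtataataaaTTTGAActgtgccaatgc
DLGAP5 (chr14:55191565-55191594, minus strand): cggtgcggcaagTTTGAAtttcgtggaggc
These genes were picked by p from a list whose tested members all had negative log2 fold changes, so their likeness is set in part by that choice. The log2 fold changes were -0.20 for TOP2A, -0.28 for KIF11 and -0.28 for PLK1, the polo kinase of mitosis. They were -0.26 for PRC1, which bundles spindle microtubules, -0.26 for CDK1, the kinase that drives entry into mitosis, and -0.28 for DLGAP5, a spindle protein. A match of letters is a description and shows no binding.

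Many S phase genes were lower as well. Of the 48 tested genes of DNA replication and nucleotide synthesis, 26 fell and none rose, all 26 for the first time, against the same 4.57% of all genes, and the median log2 fold change was -0.15 at day 3 and -0.02 on both earlier days. Their summed level was 4221 and 4244 CPM in the BRD9 KO and 4726 and 4688 CPM in the LacZ libraries, a difference of -10.1%. TYMS, thymidylate synthase, was at 257 and 256 CPM in BRD9 KO and 296 and 291 CPM in LacZ cells (-0.19, standard error 0.0249, adjusted p = 3.26e-05). MCM7, a subunit of the replicative helicase, was at 255 and 246 CPM in BRD9 KO and 289.7 and 287 CPM in LacZ cells (-0.20, adjusted p = 0.000133). Both groups of libraries were tight in these genes and did not overlap. RRM2, a subunit of ribonucleotide reductase, was at 185 and 178 CPM in BRD9 KO and 204 and 209 CPM in LacZ cells (-0.19, adjusted p = 0.000563). MCM2, another helicase subunit, was at 162 and 174 CPM in BRD9 KO, against 193 and 192 CPM in LacZ cells (-0.20, adjusted p = 0.000607). UHRF1, which recruits the maintenance methylase to replicating DNA, was not called at 195 and 187 CPM in BRD9 KO and 197 and 199.7 CPM in LacZ cells (adjusted p = 0.458). The letters TTTNNCGC, a form of the E2F site, were in 55% of 40 promoters of this list and 10.6% of all, and the CHR in 2.5% of the 40. The count of lower genes was 12 without BRD9 KO replicate 1, 14 without LacZ replicate 1 and 16 without LacZ replicate 2, 15 in DESeq2 and 3 in limma-trend on log2(TPM + 1), where RRM2 was among those lost (adjusted p = 0.0983). On day 5 the lists had 24 lower G2/M genes, and 12 lower and 1 higher S phase genes. Of all 15027 genes, 1118 were lower and 1132 higher on that day.

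**Figure D4:**
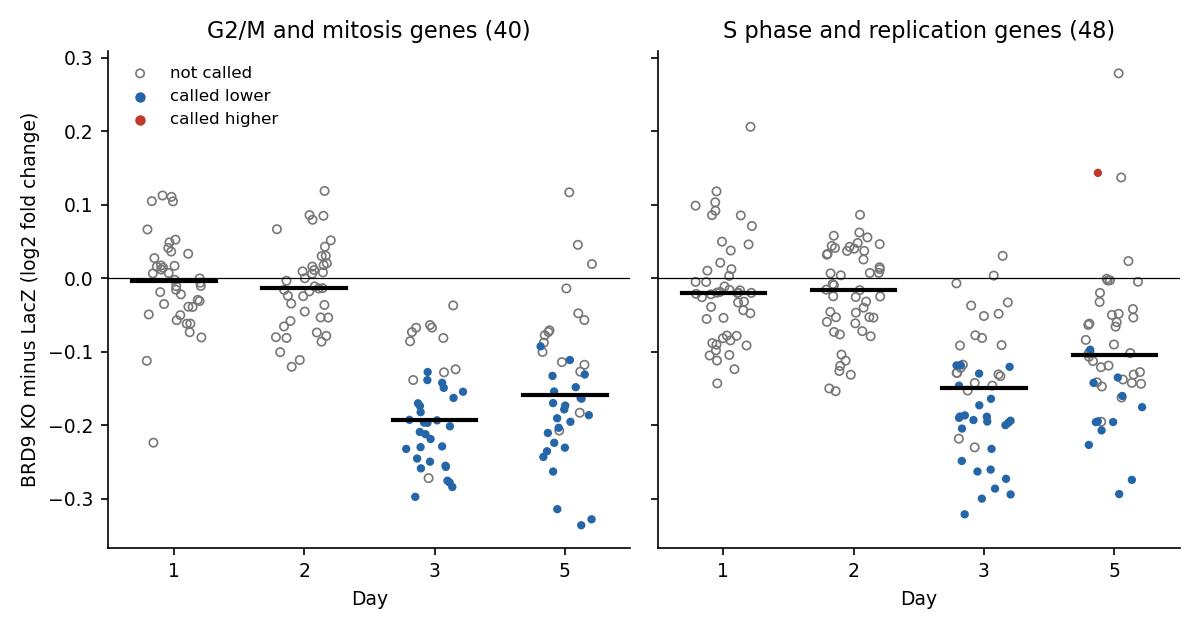
Log2 fold change (BRD9 KO minus LacZ) of each of the 40 G2/M and mitosis genes (left) and 48 S phase and replication genes (right) on days 1, 2, 3 and 5; filled points passed the test on that day, open points did not, and the bar is the median. Both clouds are centred close to 0 on days 1 and 2 and lie almost wholly below it on day 3, with medians of -0.19 and -0.15.

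Genes of chromatin assembly had more lower than higher calls. Among 50 tested histone chaperones, HMG proteins and replacement histones, 14 fell, 10 of them for the first time, and 2 rose, with a median of -0.06, where 5.85% of all genes fell and 4.59% rose. HMGN2, which binds nucleosomes, was at 193 and 195 CPM in BRD9 KO and 259 and 259 CPM in LacZ cells (log2 fold change -0.42, standard error 0.031, adjusted p = 3.27e-08). SET, a histone chaperone, was at 645 and 635 CPM in BRD9 KO and 694 and 698 CPM in LacZ cells (-0.12, adjusted p = 0.000261). Both were below LacZ in each BRD9 KO library, HMGN2 by the larger step. HMGB2, a protein that bends DNA, was at 147 and 158 CPM in BRD9 KO and 178 and 182 CPM in LacZ cells (-0.24, adjusted p = 0.000393). H2AFZ, the histone variant H2A.Z, was at 206 and 201 CPM in BRD9 KO, against 230.1 and 229 CPM in LacZ cells (-0.17, adjusted p = 0.000787). Of the 27 replication-dependent histone genes tested none passed, and their median log2 fold change was 0.07; these RNAs carry no poly(A) tail. Among 46 tested polycomb, heterochromatin and DNA methylation genes, 7 fell and 1 rose, all for the first time, where 4.57% of all genes were first-called lower and 3.86% first-called higher, and the 7 were 0 without BRD9 KO replicate 1, 4 without BRD9 KO replicate 2, 1 without LacZ replicate 1, 3 without LacZ replicate 2 and 1 in DESeq2. EZH2, the methylase of histone H3 lysine 27, was at 45.5 and 46.0 CPM in BRD9 KO and 54.3 and 53.7 CPM in LacZ cells (-0.24, adjusted p = 0.00698, and 0.0734 without BRD9 KO replicate 1, 0.0689 without LacZ replicate 1, 0.0626 in DESeq2 and 0.159 in limma-trend on log2(TPM + 1)). DNMT1, the maintenance methylase, was at 224 and 224 CPM in BRD9 KO and 246 and 243 CPM in LacZ cells (-0.12, adjusted p = 0.0102), and without any 1 of the day-3 libraries its adjusted p was 0.0506 to 0.11, and 0.492 in limma-trend on log2(TPM + 1). The 14 chromatin assembly genes were 8 without BRD9 KO replicate 1 and 9 without either LacZ replicate, 4 in limma-trend on log2(TPM + 1), where SET was not called (adjusted p = 0.203).

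In the other direction, more of the inflammatory and immediate-early genes were called higher than lower in BRD9 KO cells, although most of them did not pass. Of 24 tested NF-kB and inflammatory genes 9 rose and none fell, where 4.59% of all genes were higher. For 6 it was the first call, where 3.86% of all genes were first-called higher. An effect above that of days 1 and 2 was called in 6, and in 147 of all 15027 genes. The list's median log2 fold change was -0.05 on day 1, 0.04 on day 2, 0.12 on day 3 and 0.14 on day 5. NFKB2, the precursor of the p52 subunit, was at 227 and 221 CPM in BRD9 KO and 189 and 181 CPM in LacZ cells (0.28, standard error 0.0364, adjusted p = 4.61e-05). RELB, the partner of p52, was at 66.2 and 61.1 CPM in BRD9 KO and 50.5 and 47.1 CPM in LacZ cells (0.39, standard error 0.0591, adjusted p = 0.000208). Both subunits were above LacZ in each BRD9 KO library. IL6, the cytokine interleukin 6, was at 21.9 and 23.7 CPM in BRD9 KO and 15.8 and 14.3 CPM in LacZ cells (0.60, adjusted p = 0.00122). STAT3, a transcription factor downstream of it, was at 462 and 469 CPM in BRD9 KO, against 413 and 423 CPM in LacZ cells (0.16, adjusted p = 7.66e-05). The effect on IL6 differed from that of days 1 and 2 by 0.58 (adjusted p = 0.0361). CSF1, a growth factor of macrophages and the most abundant member not called, was at 183 and 175 CPM in BRD9 KO and 170.0 and 170.0 CPM in LacZ cells (adjusted p = 0.154). The count was 6 without BRD9 KO replicate 1 and 6 without LacZ replicate 2, and 4 in limma-trend on log2(TPM + 1), where RELB was not called (adjusted p = 0.155).

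Of 40 tested immediate-early, AP-1 and YAP response genes, 14 rose and 4 fell, against 4.59% and 5.85% of all genes, 11 and 3 of them for the first time, with a median of 0.13 on day 3 against -0.04 and -0.01 on days 1 and 2. DUSP1, a phosphatase of MAP kinases, was at 153 and 150.2 CPM in BRD9 KO and 118 and 121 CPM in LacZ cells (0.34, standard error 0.0344, adjusted p = 1.87e-06). ATF3, a stress-induced transcription factor, was at 78.7 and 81.2 CPM in BRD9 KO and 62.4 and 62.2 CPM in LacZ cells (0.36, standard error 0.0396, adjusted p = 6.69e-06). DUSP6, a phosphatase of ERK, was at 191 and 192 CPM in BRD9 KO and 155 and 157 CPM in LacZ cells (0.30, standard error 0.0348, adjusted p = 1.15e-05). The 3 genes had tight replicates and differed from the mean of days 1 and 2 (differences of 0.37, 0.30 and 0.26, adjusted p = 4.74e-05, 0.0022 and 0.0022). EGR1, an early response transcription factor, was at 28.1 and 28.2 CPM in BRD9 KO and 19.5 and 18.9 CPM in LacZ cells (0.55, adjusted p = 6.64e-05) and had already been called. The members that fell included AJUBA, a LIM protein of the YAP pathway (69.9 and 73.3 CPM in BRD9 KO, 86.9 and 85.7 CPM in LacZ, -0.27, adjusted p = 0.000186). The 14 were 10 without BRD9 KO replicate 1 or either LacZ replicate, the 4 were 1 to 2 with any 1 day-3 library left out, and in limma-trend on log2(TPM + 1) 7 were higher and ATF3 was not called (adjusted p = 0.134). Among 25 FGF signalling genes 6 rose and 1 fell, against 4.59% and 5.85% of all genes. SPRY4, a feedback inhibitor of receptor tyrosine kinases, was at 59.4 and 61.2 CPM in BRD9 KO and 48.3 and 48.9 CPM in LacZ cells (0.31, adjusted p = 0.000279, and 0.0768 in limma-trend on log2(TPM + 1)). FGFR2, an FGF receptor, was at 311 and 315 CPM in BRD9 KO and 352 and 345 CPM in LacZ cells (-0.16, adjusted p = 0.000164). Without BRD9 KO replicate 1 and without LacZ replicate 2, 4 of the 6 were called.

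Matrix and adhesion genes moved in both directions. Of 30 tested collagen and matrix genes 8 rose and 12 fell, against 10.4% called among all genes. COL6A1, a chain of collagen VI, was at 224 and 219 CPM in BRD9 KO and 162 and 161 CPM in LacZ cells (log2 fold change 0.46, standard error 0.0344, adjusted p = 4.23e-08). NID1, nidogen, a protein of basement membranes, was at 150.4 and 153 CPM in BRD9 KO and 117 and 112 CPM in LacZ cells (0.40, standard error 0.0346, adjusted p = 2.55e-07). Both were raised in each BRD9 KO library. MMRN1, a multimerin, was at 319.9 and 309.6 CPM in BRD9 KO and 492 and 495 CPM in LacZ cells (-0.65, standard error 0.023, adjusted p = 1.08e-12). COL1A1, a chain of collagen I, was at 233 and 223 CPM in BRD9 KO and 340.1 and 357 CPM in LacZ cells (-0.61, standard error 0.029, adjusted p = 7.28e-11). SPARC, a collagen-binding protein, was at 241 and 240.2 CPM in BRD9 KO, against 311 and 317 CPM in LacZ cells (-0.39, adjusted p = 2.28e-08). In these 3 the BRD9 KO libraries lay well below LacZ, and all 3 had an effect below the mean of days 1 and 2 (differences of -0.47, -0.40 and -0.31). The 8 higher genes remained 8 in number with any 1 day-3 library left out; the 12 lower ones were 8 without BRD9 KO replicate 2 or LacZ replicate 1.

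Among 25 tested integrins, laminins and proteases of the cell surface 9 rose and 1 fell, where 4.59% of all genes rose and 5.85% fell. PLAU, urokinase, was at 905 and 905 CPM in BRD9 KO and 715 and 727 CPM in LacZ cells (0.33, standard error 0.0161, adjusted p = 1.11e-10). ITGAV, the integrin alpha V chain, was at 971 and 982 CPM in BRD9 KO, against 776 and 789 CPM in LacZ cells (0.32, standard error 0.0158, adjusted p = 1.14e-10). Both had been called before, and their effects were larger again on day 5 (differences of 0.18 and 0.19 from day 3, adjusted p = 0.000303 and 0.00015). ADAMTS1, a matrix protease that was new on day 3, was at 395 and 397 CPM in BRD9 KO and 360.0 and 352 CPM in LacZ cells (0.15, adjusted p = 0.00069, and 0.0637 in limma-trend on log2(TPM + 1)). The 9 were 4 without either BRD9 KO replicate, 5 without either LacZ replicate, 5 in a fit of the day-3 libraries alone and 4 in DESeq2. Of 17 tested keratins and epithelial genes 3 rose and 3 fell. KRT18 was at 4200.5 and 4244 CPM in BRD9 KO and 3228 and 3213 CPM in LacZ cells (0.39, adjusted p = 1.08e-12) and KRT8, its partner in epithelial filaments, was at 5441 and 5449.7 CPM in BRD9 KO, against 4284 and 4238 CPM in LacZ cells (0.35, adjusted p = 1.35e-11); both have many pseudogenes among which reads may have been split. KRT80, another keratin, was at 9.59 and 12.6 CPM in BRD9 KO and 18.6 and 18.8 CPM in LacZ cells (-0.78, adjusted p = 0.000261), so that the keratins did not move together. DSP and JUP, proteins of desmosomes, were lower by small amounts (-0.07 with adjusted p = 0.000493, and -0.16 with adjusted p = 0.0135). JUP lost its call without BRD9 KO replicate 1, LacZ replicate 1 or LacZ replicate 2 (adjusted p = 0.16, 0.0847 and 0.0735), and both did so in limma-trend on log2(TPM + 1) (0.315 for DSP and 0.354 for JUP). Of 37 tested actin and contractile genes 16 fell and 5 rose. FLNA, a filamin that crosslinks actin, was at 1499.9 and 1489 CPM in BRD9 KO and 1794 and 1799.8 CPM in LacZ cells (-0.27, adjusted p = 4.73e-10), and ACTN4, an actinin, was lower by -0.31 (adjusted p = 1.51e-09). VCL, vinculin, was at 2003 and 1989 CPM in BRD9 KO and 1823 and 1846 CPM in LacZ cells (0.12, adjusted p = 1.19e-06). The 16 were 9 to 10 with any 1 day-3 library left out and 10 in DESeq2.

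**Figure D5:**
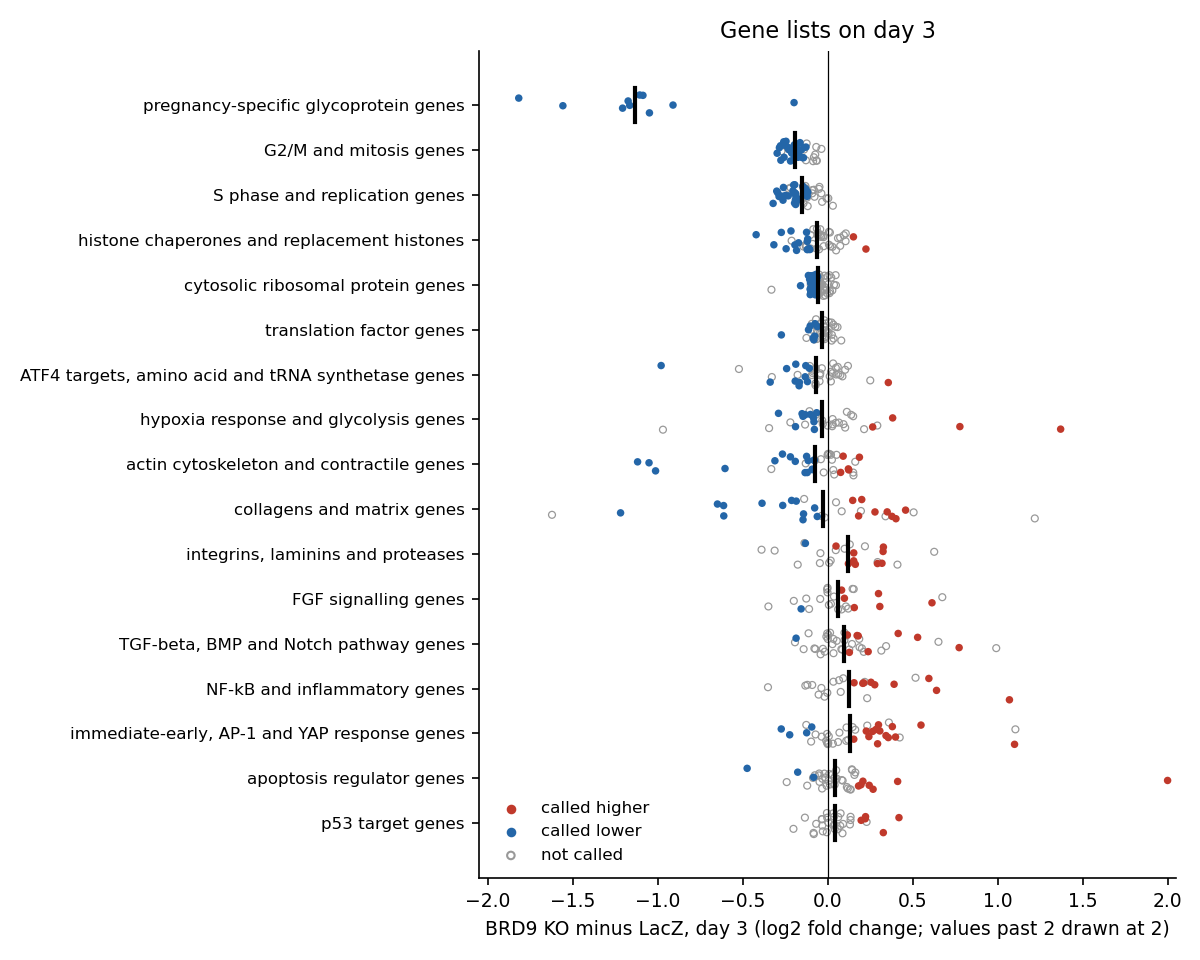
Log2 fold change on day 3 (BRD9 KO minus LacZ) of the members of 17 gene lists; red and blue points passed the test, open points did not, and the bar is the list's median. The PSG genes lie far to the left, the G2/M genes all lie left of 0, and the NF-kB and immediate-early lists have their calls mostly to the right.

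Axon guidance genes moved in both directions: 4 of 32 rose and 5 fell, all 9 called for the first time on day 3, where 3.86% of all genes were first-called higher and 4.57% first-called lower. SEMA3B, a secreted semaphorin, was at 91.5 and 85.8 CPM in BRD9 KO and 129 and 129 CPM in LacZ cells (-0.53, standard error 0.0429, adjusted p = 1.04e-07). SEMA3D, a second one, was at 102 and 104 CPM in BRD9 KO, against 128 and 132 CPM in LacZ cells (-0.33, adjusted p = 2.72e-05). SEMA4B, a semaphorin of the membrane, was at 48.7 and 47.6 CPM in BRD9 KO and 38.1 and 35.6 CPM in LacZ cells (0.39, adjusted p = 0.000258). PLXND1, a plexin receptor, was at 29.98 and 30.8 CPM in BRD9 KO, against 22.1 and 24.1 CPM in LacZ cells (0.39, adjusted p = 0.00103). The groups did not overlap in these 4 genes, as in 1568 of the 1569 called genes. NRP1, a coreceptor on the membrane whose values stand with those of day 5, was also among the 5 that fell. In limma-trend on log2(TPM + 1), SEMA4B and PLXND1 were not called (adjusted p = 0.0571 and 0.397), and the 4 higher genes were 2 and the 5 lower ones 3 without LacZ replicate 2. Of 41 TGF-beta, BMP and Notch genes 8 rose and 1 fell (4.59% and 5.85% of all genes), with FSTL3 among the first; without either LacZ replicate 5 rose. NOTCH3, a Notch receptor, was at 57.1 and 59.3 CPM in BRD9 KO and 41.8 and 45.3 CPM in LacZ cells (0.41, adjusted p = 2.41e-05, and 0.147 in limma-trend on log2(TPM + 1)).

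Among ribosomal protein and translation factor genes those called were lower, by small amounts, and most did not pass. Of 48 tested ribosome biogenesis genes 4 fell and 1 rose, with a median log2 fold change of 0.01, where 5.85% of all genes fell and 4.59% rose. Of 75 tested ribosomal protein genes 27 were lower and none higher, 22 for the first time, with a median log2 fold change of -0.06, where 5.85% of all genes were lower. RPLP0, a protein of the ribosomal stalk, was at 1496 and 1503 CPM in BRD9 KO and 1621 and 1590.5 CPM in LacZ cells (-0.10, adjusted p = 0.000252), and RPL13 was at 885 and 890.4 CPM in BRD9 KO, against 959 and 961 CPM in LacZ cells (-0.11, adjusted p = 0.000212). The 27 were 8 without BRD9 KO replicate 1, 9 without LacZ replicate 1, 16 without LacZ replicate 2 and 1 in limma-trend on log2(TPM + 1), where RPLP0 was not called (adjusted p = 0.25). Of 42 translation factors 8 fell and none rose. PABPC1, which binds poly(A) tails, was at 3624 and 3699.6 CPM in BRD9 KO and 3902 and 4016 CPM in LacZ cells (-0.11, adjusted p = 3.16e-06). EEF1A1, the elongation factor that brings tRNA to the ribosome, was lower by -0.07 (adjusted p = 0.000399, and 0.105 in limma-trend on log2(TPM + 1)). The 8 were 5 without BRD9 KO replicate 1 or LacZ replicate 1, 4 without LacZ replicate 2 and 1 in limma-trend on log2(TPM + 1). Many of these genes have pseudogene copies, which makes their split of reads uncertain.

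Metabolic and stress lists had calls in both directions. Of 41 ATF4 targets, amino acid and tRNA synthetase genes 11 fell and 1, ATF3, rose, where 5.85% of all genes fell and 4.59% rose. NUPR1, a stress-responsive chromatin protein, was at 25.5 and 29.8 CPM in BRD9 KO and 55.0 and 52.9 CPM in LacZ cells (-0.98, standard error 0.0629, adjusted p = 4.93e-09), and its effect differed from the mean of days 1 and 2 by -0.75 (adjusted p = 4.23e-06). DDIT4, an inhibitor of mTORC1, was at 113 and 118 CPM in BRD9 KO and 147 and 144 CPM in LacZ cells (-0.34, adjusted p = 6.88e-06). The 11 were 6 without BRD9 KO replicate 1 or LacZ replicate 1, 7 without LacZ replicate 2 and 7 in DESeq2. Of 36 hypoxia and glycolysis genes 10 fell and 4 rose. SLC2A1, the glucose transporter GLUT1, was at 857 and 852 CPM in BRD9 KO and 1052 and 1036 CPM in LacZ cells (-0.29, adjusted p = 6.87e-10). GAPDH, an enzyme of glycolysis, was at 2286 and 2274 CPM in BRD9 KO, against 2536 and 2508 CPM in LacZ cells (-0.15, adjusted p = 1.34e-07). Of the 4 that rose 1 or 2 were called with any 1 day-3 library left out, and the 10 were 6 without LacZ replicate 1. Cholesterol and fatty acid synthesis was split, with 7 of 37 genes higher and 6 lower. HMGCS1, an early enzyme of cholesterol synthesis, was at 100.3 and 102 CPM in BRD9 KO and 88.4 and 86.9 CPM in LacZ cells (0.20, adjusted p = 0.00287, and 0.0579 in limma-trend on log2(TPM + 1)). FADS2, a fatty acid desaturase, was at 141 and 147 CPM in BRD9 KO and 183 and 175 CPM in LacZ cells (-0.31, adjusted p = 1.79e-05). The 7 were 2 without BRD9 KO replicate 2 or LacZ replicate 2 and 4 without LacZ replicate 1, and the 6 were 4 without LacZ replicate 1.

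Of 40 tested apoptosis regulators 7 rose and 3 fell, against 4.59% and 5.85% of all genes. XIAP, an inhibitor of caspases, was at 96.1 and 93.8 CPM in BRD9 KO, against 68.1 and 74.8 CPM in LacZ cells (log2 fold change 0.41, standard error 0.0512, adjusted p = 2.47e-05). BIRC2, another inhibitor of apoptosis, was at 127 and 131 CPM in BRD9 KO and 106 and 108 CPM in LacZ cells (0.27, adjusted p = 0.000106) and was new on day 3. Neither gene showed an overlap of the groups, as was so for 1568 of the 1569 called genes. BCL2, which protects mitochondria from permeabilization, was at 21.7 and 19.9 CPM in BRD9 KO and 26.3 and 31.8 CPM in LacZ cells (-0.47, adjusted p = 0.00123). In limma-trend on log2(TPM + 1), XIAP and BCL2 were not called (adjusted p = 0.614 and 0.437), and the 7 were 4 without BRD9 KO replicate 2, 3 without either LacZ replicate and 3 in DESeq2. Of 33 p53 targets 5 rose and none fell, where 4.59% of all genes rose, with 2 left without BRD9 KO replicate 1, 1 without LacZ replicate 1 and 1 in DESeq2. Of 30 interferon-stimulated genes 5 rose and none fell, against the same 4.59%; DDX58, the RNA sensor RIG-I, was at 52.8 and 58.8 CPM in BRD9 KO and 36.1 and 37.2 CPM in LacZ cells (0.60, adjusted p = 2.57e-06), and without LacZ replicate 2 the count was 3.

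The mitochondrially encoded mRNAs differed more on day 2 than on day 3. All 13 had been called on day 1 or 2, as had 443 of all 15027 genes. Their median log2 fold change was 0.07, 0.20, -0.01 and -0.04 on days 1, 2, 3 and 5. On day 3, 2 of 13 were called, both lower, where 5.85% of all genes were lower. In 12 the effect was called lower than the mean of the earlier days, as in 246 of all 15027 genes. Their summed level was 45710 and 47930 CPM in the BRD9 KO and 47410 and 47750 CPM in the LacZ libraries of day 3, where the groups overlapped. MT-CO1, a subunit of cytochrome oxidase, was at 9556 and 9827 CPM in BRD9 KO and 10129 and 10008 CPM in LacZ cells (-0.06, adjusted p = 0.00787, and 0.151 without BRD9 KO replicate 1 and 0.136 without LacZ replicate 1), and its effect differed from that of days 1 and 2 by -0.18 (adjusted p = 1.09e-06).

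From day 3 to day 5 few differences of effect passed the test, which does not show that the other effects stayed the same. The day 5 effect differed from the day 3 effect in 145 genes (0.965%), 71 upward and 74 downward, and in 45 of the 1266 first-called genes, 32 of which were larger on day 5 in the same direction. TUBB2A, a beta tubulin, was at 143 and 153 CPM in BRD9 KO and 121 and 115 CPM in LacZ cells on day 3 (log2 fold change 0.32, adjusted p = 5.53e-05), and its effect was larger by 0.42 on day 5 (adjusted p = 0.000969). FGFBP3, an FGF-binding protein, was at 109 and 109 CPM in BRD9 KO and 161 and 167 CPM in LacZ cells (-0.59, adjusted p = 4.73e-10) and moved by a further -0.45 (adjusted p = 7.65e-05). NRP1, a coreceptor of semaphorins and VEGF, was at 37.2 and 37.1 CPM in BRD9 KO and 46.1 and 48.9 CPM in LacZ cells (-0.36, adjusted p = 0.000587) and moved by a further -0.45 (adjusted p = 0.0165). These 3 effects were larger on day 5 than on day 3. UCA1, a long non-coding RNA, was at 109.6 and 119 CPM in BRD9 KO and 136 and 138 CPM in LacZ cells on day 3 (-0.27, adjusted p = 0.000489) and changed by 0.41 to day 5 (adjusted p = 0.00104). MYPN, a protein of muscle Z-discs, was lower by -0.51 on day 3 (adjusted p = 4.29e-07) and changed by 0.42 (adjusted p = 0.00379). On day 5, UCA1 was higher in BRD9 KO cells (0.14, adjusted p = 0.0192) and MYPN was not called (-0.09, adjusted p = 0.401). The 145 were 86 without BRD9 KO replicate 2, 80 without LacZ replicate 1 and 81 without LacZ replicate 2 of day 3, 85 without LacZ replicate 1 and 96 without LacZ replicate 2 of day 5, and 316 with no filter on low counts. NRP1 and UCA1 were not called on day 3 in limma-trend on log2(TPM + 1) (adjusted p = 0.712 and 0.267).

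At the threshold itself stood HOXA3, a homeobox transcription factor, just inside it (15.9 and 14.9 CPM in BRD9 KO, 21.3 and 18.7 CPM in LacZ, log2 fold change -0.37, adjusted p = 0.0495). PSMG1, a chaperone of proteasome assembly, stood just outside it (49.9 and 51.2 CPM in BRD9 KO, 57.0 and 55.6 CPM in LacZ, -0.16, adjusted p = 0.0501). In both genes the groups did not overlap, as in 7690 of all 15027 genes. HOXA3 lost its call with any 1 day-3 library left out (adjusted p = 0.0642 to 0.361) and with the replicate number as a block (adjusted p = 0.073).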

How the data were processed

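The authors extracted RNA, made NEBNext Ultra libraries, which do not mark strand, aligned reads to hg19 with STAR, counted genes with RSEM and tested them with DESeq2; tool versions are not given in the sources used here. The deposited files give per gene the expected count, RSEM's estimate of reads, in which 35.7% of values above 0 are not whole, and TPM, the authors' value scaled by transcript length and library total. Reads of paralogs, overlapping and antisense genes are split by RSEM's model or cannot be told apart.

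Expected counts were rounded (library totals changed by at most 36.3). All 16 libraries were fitted with edgeR 4.0.16 in R 4.3.3 (glmQLFit, glmQLFTest) with a mean per group, since they share 1 estimate of spread, after filterByExpr (minimum count 10, minimum total 15) and TMM scaling, with TMM factors within 2% of 1 on all days; this left 8 residual degrees of freedom. The contrasts took LacZ from BRD9 KO on each day, and compared day 3 with the mean of days 1 and 2 and day 5 with day 3. Genes with a Benjamini-Hochberg adjusted p under 0.05 were called, and counted as first called on day 3 if not called on day 1 or 2. Library totals over the series were 9185850 to 16560717, and intervals and floors (3 counts) cover counting error only.

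The members and the 37 gene lists were chosen with earlier results of these data known, and lists got no test. Named genes came from a rule: BRD9 and called SWI/SNF subunits; the 15 highest and 15 lowest fold changes among called and among first-called genes whose level averaged 1 log2 CPM or more and whose groups did not overlap; the 10 highest and lowest of day 3 minus days 1 and 2; in each list up to 4 called members per direction by p and the most abundant one not called; up to 6 per direction called on day 3 and in day 5 minus day 3; and the genes nearest the threshold. These are 254 genes, of which some are left out of the text for length and a few are not reported here; PLK1, PRC1, CDK1 and DLGAP5 are named for their promoters. Equal replicate numbers do not mark a shared batch in the labels, so samples were not paired: deviations of same-numbered BRD9 KO and LacZ libraries correlated at -0.0246 on day 3 over all genes and at 0.0979 over 6298 abundant ones. Alternatives were a fold threshold, other filters, DESeq2's size factors, DESeq2 1.42.0, limma 3.58.1 (limma-trend) on log2 TPM with pseudocounts of 1 and 0.1, thinning to the smallest total, only the libraries of day 3, the replicate number as a block and each library left out. The pipeline was tested on simulated data. Gene coordinates are from GENCODE v44lift37 (14554 genes matched).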

Additional observations from a re-analysis of the deposited data

Results flagged for a closer look

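The effect of BRD9 deletion differed between days by a test of the difference itself (edgeR's quasi-likelihood test, adjusted p under 0.05) in 393 genes between day 3 and the mean of days 1 and 2, and in 145 genes between day 5 and day 3. The genes below are those that the naming rule took from these 2 contrasts; all values are differences in log2 fold change, and they share the libraries of day 3.

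Upward on day 3 relative to days 1 and 2 were ANKRD37 (2.20), RP11-468E2.4 (1.77), RP11-1212A22.4 (1.29), SLC25A48 (0.71), FSTL3 (0.69), MC1R (0.68), KLF13 (0.65), IL6 (0.58), ZNF239 (0.51) and TPMT (0.48). RP11-468E2.4 was not called on day 3 itself (log2 fold change 0.28, adjusted p = 0.563), while on day 1 it was lower (-2.38, adjusted p = 0.000841). Downward were LINC00672 (-1.57), TTC30A (-1.18), TSPAN1 (-1.06), PSG1 (-1.02), PSG2 (-0.91), TSPAN10 (-0.91), RP5-899B16.1 (-0.87), SECTM1 (-0.85), PSG5 (-0.84) and PSG9 (-0.83).

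Upward on day 5 relative to day 3 were MMP14 (0.58), CORO7 (0.46), COL6A1 (0.45), MYPN (0.42), TUBB2A (0.42) and UCA1 (0.41). Of these, MMP14, COL6A1 and TUBB2A were higher in BRD9 KO cells on day 3, and CORO7, MYPN and UCA1 were lower. Downward were RP11-1212A22.4 (-1.33), RP11-449D8.1 (-0.71), BTBD11 (-0.59), RGS5 (-0.58), NRP1 (-0.45) and FGFBP3 (-0.45). Of these, only RP11-1212A22.4 was higher on day 3. In DESeq2, MMP14, CORO7 and BTBD11 were not called on day 3 (adjusted p = 0.137, 0.279 and 0.206). RP11-1212A22.4 was the 1 gene of these lists that moved up by day 3 and down by day 5.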

How the results depend on the processing

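BRD9 kept its direction and call under all 14 alternatives (adjusted p of 3.32e-81 to 4.32e-05). The count of 1569 called genes on day 3 was 908 in DESeq2, 412, 404 and 326 in limma-trend on TPM (pseudocounts of 1 and 0.1, and 1 without the filter), 73 with an absolute log2 fold change of at least 1, and 841 to 1019 without 1 library of day 3. The 1266 first-called genes were 686, 346, 341, 274 and 55 in the same order, 589 to 1392 without 1 library, 699 with an unadjusted p of at least 0.05 on days 1 and 2, and 250 that also passed day 3 minus days 1 and 2. That contrast gave 393 genes, and 236, 59, 59, 93 and 17 in the same order, with 177 to 344 without 1 library. Day 5 minus day 3 gave 145 genes, 21, 23 and 65 in limma-trend, 5 with a log2 fold change of at least 1, 316 without the filter, 82 after thinning to the smallest total, and 80 to 101 without 1 library. The cause of the lower counts was not tested.

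With the replicate number as a block within days the counts were 1519, 1231, 359 and 138, so the pairing moved no count by over 1.5 times; HOXA3 (adjusted p = 0.073), TMEM54 (0.056), LINC00672 (0.0661) and MMP14 (0.081) were the 4 of 119 named genes that lost their call under the block. Deviations of same-numbered libraries correlated at -0.0123, -0.0483, -0.0246 and -0.0177 on days 1, 2, 3 and 5, and over 6298 abundant genes at -0.0377, -0.12, 0.0979 and 0.179. Of the 119 named genes 38 lost their call in limma-trend on log2(TPM + 1), 8 of 108 in DESeq2 and 6 to 18 without 1 library of day 3, and none reversed. Depth bears most on scarce genes, and 11 named genes got no adjusted p in DESeq2. These were PRSS33, CCL25, TTC30A, EDN2, TSPAN1, ANKRD37, EFR3B, TMEM54, ELFN2, TRAF1 and LINC00672. TMEM189-UBE2V1 was not called in DESeq2 (adjusted p = 0.625).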
